A study of Mus musculus with 14 samples.

Results

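The 7 genes described here encode pumps, channels, exchangers and an enzyme of epithelial ion transport, namely *Atp1b1*, *Atp4a*, *Kcnq1*, *Car2*, *Kcnj11*, *Aqp3* and *Slc9a3*. They were taken by name from a count table of 28022 mouse genes, and all 7 were found in it. The table covers 7 conditions of 2 RNA-seq libraries each, 14 in all, and the strain of every sample was labelled C57BL/6J. Fib were mouse embryonic fibroblasts. The 4 culture conditions contained iHepSCs, which are hepatic stem-like cells converted from such fibroblasts with lentiviral *Oct4* and *Hnf4α*. 2D-iHs were monolayers of iHepSCs alone and 2D-iHEs were monolayers of iHepSCs with iECs, which are endothelial-like cells that lentiviral *ETV2* produced from HF1, a line of human fibroblasts. The libraries labelled 3D-iHA were taken to be those of iHLOs, the study's organoids of iHepSCs alone in a hydrogel of Matrigel and type I collagen, since the labels do not use the name iHLO for any library, and iHEAs were assembloids in which the same hydrogel also held iECs. All 4 cultures were kept in the same mixed medium, but the iHepSCs of the 3D cultures were first grown as spheroids in hepatic medium, and the 3D cultures also differed from the 2D cultures in the Matrigel and in shaking, so that culture shape, the spheroid step with its medium, matrix and shaking cannot be told apart. The remaining conditions were adult liver, described in the methods as from 6-week-old male mice, and fetal liver from mid-gestation embryos. The study asked how co-culture and 3D culture change iHepSCs at the level of transcripts.

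Ion transport in epithelia works as a chain of coupled steps. The Na,K-ATPase at the basolateral membrane exports sodium and imports potassium, and potassium channels let the potassium leave again, which keeps the membrane potential that drives other transporters. Carbonic anhydrase hydrates carbon dioxide to bicarbonate and a proton, which supplies the substrates of bicarbonate exchangers, Na/H exchangers and, in the stomach, the H,K-ATPase. In the liver these steps are best known in bile duct cells, which add water and bicarbonate to bile after secretin binds its receptor, while the H,K-ATPase is the acid pump of gastric parietal cells.

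Among the 7 genes, *Atp1b1* encodes the beta 1 subunit of the Na,K-ATPase, which the catalytic alpha subunit needs to reach the membrane, and *Atp4a* encodes the catalytic alpha subunit of the gastric H,K-ATPase. *Kcnq1* encodes a voltage-gated potassium channel that KCNE subunits modify, and *Kcnj11* encodes Kir6.2, the pore of the ATP-sensitive potassium channel, which is completed by a sulfonylurea receptor. *Car2* encodes the cytosolic carbonic anhydrase II, which is also abundant in red blood cells. *Aqp3* encodes a water and glycerol channel, and *Slc9a3* encodes NHE3, an apical Na/H exchanger of kidney and intestine. All 7 were protein-coding genes of the GENCODE annotation on GRCm38. *Atp1b1* lay on chromosome 1 from 164437109 to 164458355 on the minus strand, and *Car2* on chromosome 3 from 14886273 to 14900770 on the plus strand. *Aqp3* was found on chromosome 4 from 41092722 to 41098183 on the minus strand, and *Slc9a3* on chromosome 13 from 74121457 to 74169442 on the plus strand. The other 3 were on chromosome 7: *Atp4a* from 30712209 to 30725534 on the plus strand, *Kcnj11* from 46093953 to 46100764 on the minus strand and *Kcnq1* from 143106362 to 143427042 on the plus strand. *Atp1b1* shared 575 exon bases with *Nme7* on the opposite strand, and *Kcnq1* shared 121 exon bases with the antisense transcript *Kcnq1ot1*. The strand setting of the counting was not given in the sources used here, so reads in these stretches cannot be assigned to a strand.

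RefSeq promoters, here the 250 bases before and 50 bases after the transcription start on GRCm38.p6, were given for 4 of the 7 genes, and all 4 are shown because these genes were higher together in 3D culture from very different starting levels. Capitals mark matches on either strand to the TATA box TATAAA, the box CCAAT, the Sp1-type letters GGGCGG and the KLF-type letters GGGTGG. They would also mark the GATA-type letters AGATAA, the TEAD-type letters GGAATG, the HNF4-type letters CAAAGTCCA, the grainyhead-type letters AACCGGTT and the HNF1-type letters GTTAAT, which were held by 11.4%, 14.6%, 0.477%, 0.152% and 7.2% of all promoters and by none of these 4. No motif contains another. The windows, in the same order, are chr1:164458306-164458605 on the minus strand, chr7:30711959-30712258 on the plus strand, chr4:41098134-41098433 on the minus strand and chr13:74121163-74121462 on the plus strand.
*Atp1b1*: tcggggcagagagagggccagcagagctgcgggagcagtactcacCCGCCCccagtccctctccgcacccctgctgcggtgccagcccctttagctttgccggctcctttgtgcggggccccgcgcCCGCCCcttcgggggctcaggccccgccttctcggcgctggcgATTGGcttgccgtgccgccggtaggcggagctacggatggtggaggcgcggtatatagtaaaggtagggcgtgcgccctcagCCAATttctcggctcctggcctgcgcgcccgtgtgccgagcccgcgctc
*Atp4a*: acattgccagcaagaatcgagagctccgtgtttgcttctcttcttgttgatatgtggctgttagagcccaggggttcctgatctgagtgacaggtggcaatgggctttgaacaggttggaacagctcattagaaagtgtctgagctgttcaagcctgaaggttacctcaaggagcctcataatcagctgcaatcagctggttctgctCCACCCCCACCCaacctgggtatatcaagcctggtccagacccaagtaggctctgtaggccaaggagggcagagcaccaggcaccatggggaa
*Aqp3*: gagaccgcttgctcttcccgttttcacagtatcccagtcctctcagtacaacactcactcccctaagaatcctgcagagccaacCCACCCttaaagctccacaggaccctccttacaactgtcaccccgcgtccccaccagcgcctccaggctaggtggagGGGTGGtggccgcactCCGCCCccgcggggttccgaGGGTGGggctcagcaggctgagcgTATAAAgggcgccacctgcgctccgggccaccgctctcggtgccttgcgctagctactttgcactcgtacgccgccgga
*Slc9a3*: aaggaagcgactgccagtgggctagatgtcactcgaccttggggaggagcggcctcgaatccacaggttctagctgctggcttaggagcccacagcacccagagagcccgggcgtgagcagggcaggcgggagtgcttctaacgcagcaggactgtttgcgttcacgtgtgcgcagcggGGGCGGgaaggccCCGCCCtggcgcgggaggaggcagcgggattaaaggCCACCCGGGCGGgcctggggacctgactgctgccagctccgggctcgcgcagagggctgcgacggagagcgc
The *Atp1b1* window held 71% G and C, with CCAAT at position 2 and in reverse at position -81, and GGGCGG in reverse at positions -205 and -124, counted from the start site without a 0. The *Atp4a* window held 52.7% G and C, as did the median promoter, and only GGGTGG in reverse at positions -43 and -37. The *Aqp3* window held TATAAA at position -29, GGGCGG in reverse at position -73 and GGGTGG at 3 positions. The *Slc9a3* window held 68.7% G and C, with GGGCGG at positions -71 and -16 and in reverse at position -58, and GGGTGG in reverse at position -22. Of 27025 mouse promoters of this length, 14.2% held TATAAA, 37.9% held CCAAT, 35.9% held GGGCGG and 30.9% held GGGTGG. The Sp1-type letters were in the *Atp1b1*, *Aqp3* and *Slc9a3* windows and the KLF-type letters in the *Atp4a*, *Aqp3* and *Slc9a3* windows, and no searched motif was in all 4. A match describes letters, not a binding site.

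The libraries held 20851489 to 35143325 counts. Levels are given as CPM, counts scaled to library size with TMM, a method that equalizes libraries over the bulk of their genes. The TMM factor was 0.445 and 0.451 in the adult liver libraries and 1.087 to 1.218 in the others, so levels in adult liver depend on this step. A limit of 3 counts corresponded to 0.0771 to 0.196 CPM. *Hnf4a* had 2 and 5 counts in Fib and 4117 to 7670 in the cultures. Of 8 hepatocyte markers, 8 exceeded 3 counts in both adult liver libraries and 3 to 5 did so in each culture condition, where *Serpina1a* had at most 3 counts. The adult liver libraries had 14646 and 16368 counts of *Xist* and 0 of the Y-linked genes *Ddx3y*, *Uty*, *Kdm5d* and *Eif2s3y*, whereas the methods describe male mice. Fib had 93134 and 73323 counts of *Xist* and 200 and 152 of *Ddx3y*, while the culture libraries had 34 to 165 of *Xist* and 0 of *Ddx3y*. The cultures thus also differed from Fib in these genes, and the part of this in 2D-iHs against Fib was not tested. The labels describe each sample as replicate 1 and do not say whether the paired libraries came from separate cultures or animals, so all p-values measure the spread between libraries, which may be technical. The fetal liver libraries differed in Y-linked counts, with 885 and 151 of *Ddx3y* and 770 and 146 of *Eif2s3y*. The iHEA libraries differed from each other more than the libraries of the other cultures did, with a chi-square of 11.5 per gene against 3.442 to 3.67. The name of the second iHEA library pointed to both samples, so it carries no number.

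All 7 genes had a higher level in every 3D library than in every 2D library. *Kcnq1* and *Atp4a* rose about 12-fold, *Atp1b1* rose 5.3-fold and *Car2* rose 4.09-fold, whereas *Kcnj11*, *Aqp3* and *Slc9a3* rose from at most 4 counts per library to at most 27. A gene was tested when its mean log2(count + 1) over the libraries of the fit was at least 3, and called when the adjusted p of edgeR's quasi-likelihood test was under 0.05. Of the 7 genes, 4 were tested, and all 4 were called higher in 3D, where 38.7% of the 13409 tested genes were called higher and 37.2% lower. Their median log2 fold change was 2.98, beside 0.01 over all tested genes. Separation of the groups was itself common, since 33.7% of tested genes had every 3D library above every 2D library. Some of these genes were picked out by the study on these same libraries, so their direction is not independent evidence. In bulk libraries, fewer cells of a type and less RNA per cell cannot be told apart.

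*Atp1b1* had 146.5 and 144.1 CPM in the 2D-iH libraries and 157.7 and 153.1 CPM in the 2D-iHE libraries. It had 794.9 and 784.7 CPM in the iHLO libraries and 721.9 and 801.3 CPM in the iHEA libraries. The 4 libraries of each culture shape lay close together and far from the other 4. The log2 fold change in 3D against 2D was 2.40 (SE 0.054, 95% interval 2.29 to 2.52, adjusted p = 2.13e-11 by edgeR). This was the most precise of the 7 estimates, with 3690 to 6134 counts per library in 2D and 22622 to 25997 in 3D. *Nme7*, which overlaps it, had at most 624 counts in any library.

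*Kcnq1* had 2.15 and 1.89 CPM in the 2D-iH libraries and 4.58 and 3.94 CPM in the 2D-iHE libraries. The iHLO libraries had 34.6 and 32.0 CPM and the iHEA libraries 37.3 and 38.6 CPM. Every 3D library was therefore well above every 2D library, and within 2D the co-cultures were above the cultures of iHepSCs alone. The log2 fold change in 3D against 2D was 3.55 (SE 0.21, 95% interval 3.09 to 4.00, adjusted p = 2.91e-08 by edgeR). *Kcnq1ot1*, the antisense transcript in the *Kcnq1* locus, had 240 to 427 counts in the culture libraries, and its log2 fold change of 0.22 was not called (adjusted p = 0.234).

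*Atp4a* was far less abundant and more variable. It had 0.641 and 0.911 CPM in the 2D-iH libraries and 0.694 and 0.249 CPM in the 2D-iHE libraries, which correspond to 6 to 29 counts. The iHLO libraries had 12.5 and 5.42 CPM and the iHEA libraries 7.20 and 4.82 CPM. The groups did not overlap, but the first iHLO library was 2.3 times the second and the first 2D-iHE library 2.79 times the second. The log2 fold change in 3D against 2D was 3.57 (SE 0.36, 95% interval 2.77 to 4.37, adjusted p = 3.2e-06 by edgeR).

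*Car2* had 26.9 and 26.8 CPM in the 2D-iH libraries and 23.6 and 23.3 CPM in the 2D-iHE libraries. It reached 109.8 and 92.3 CPM in the iHLO libraries and 103.8 and 95.4 CPM in the iHEA libraries. The log2 fold change in 3D against 2D was 2.03 (SE 0.065, 95% interval 1.89 to 2.17, adjusted p = 2.19e-10 by edgeR).

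The 3 remaining genes were below the limit for testing and are described by their counts. *Kcnj11* had 0 counts in all 4 2D libraries and 1, 3, 4 and 3 counts in the 3D libraries, which gives 11 counts in all against 0. *Aqp3* had 2, 3, 4 and 0 counts in the 2D libraries and 12, 8, 14 and 7 counts in the 3D libraries. *Slc9a3* had 3, 1, 0 and 0 counts in the 2D libraries and 14, 18, 27 and 6 counts in the 3D libraries, with the highest and the lowest of these in the iHEAs. When the 3 genes were added to the tested genes, each was called higher in 3D, where 38.7% of genes were called higher. *Aqp3* had 9 counts in all in 2D and 41 in 3D (adjusted p = 0.00113 by edgeR), and no fold is given because its 2D level was close to the limit of 3 counts per library. The mean of *Slc9a3* was at least 5.32-fold higher in 3D, taking a limit of 3 counts for each 2D library (adjusted p = 0.000244 by edgeR). Here and below such a bound sets the mean level of the higher group over the mean limit of the lower group, so single libraries can differ by less. *Kcnj11* had an adjusted p of 0.00402 by edgeR, and no fold is given because 3 of its 4 3D libraries were also at or under 3 counts.

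**Figure D1:**
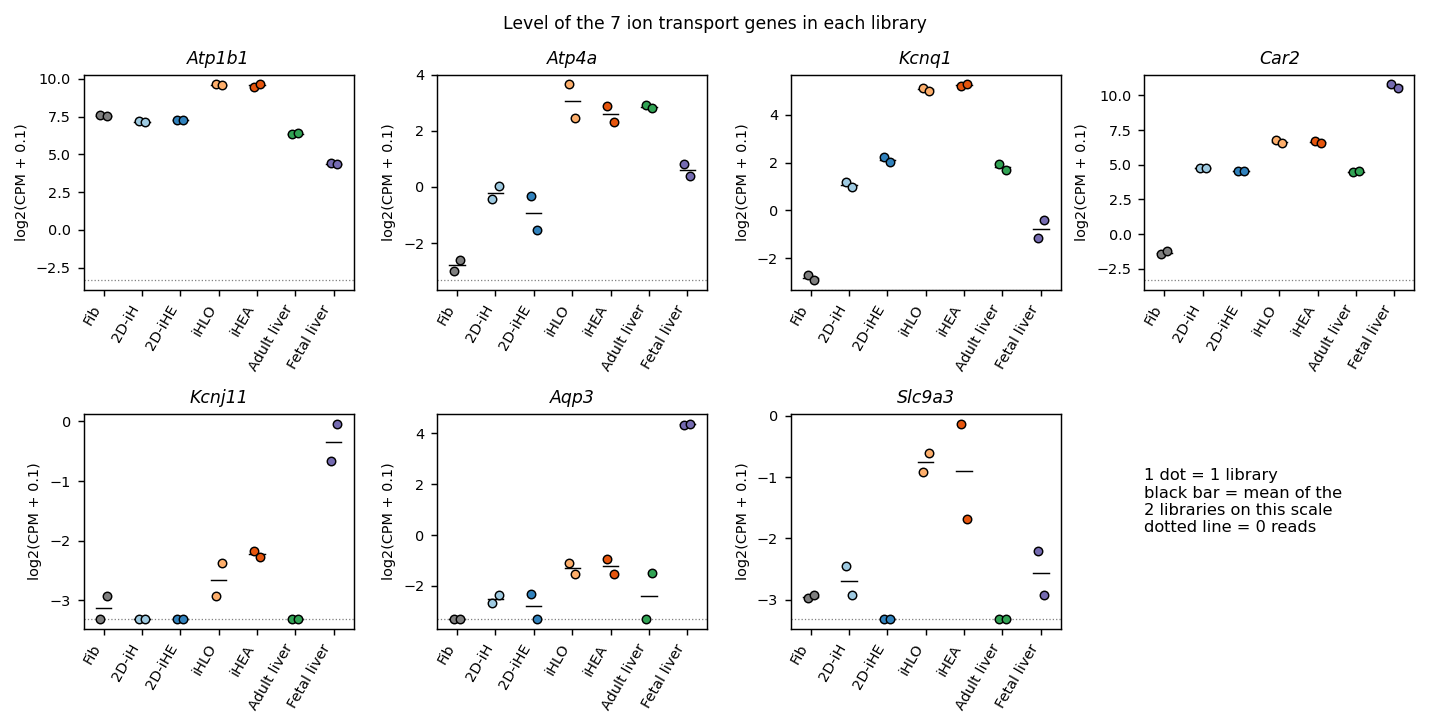
Level of each gene in each library as log2(CPM + 0.1), with 1 dot per library, the conditions along the horizontal axis and a bar at the mean of the 2 libraries. All 4 iHLO and iHEA dots lie above all 4 2D-iH and 2D-iHE dots in every panel, and *Car2*, *Kcnj11* and *Aqp3* are highest in fetal liver.

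Each 3D culture was also compared with its own 2D counterpart in a fit of the 4 culture conditions. These comparisons use the same libraries as 3D against 2D and add no independent samples. In iHLOs against 2D-iHs all 4 tested genes were called higher, where 36.9% of genes were called higher, and in iHEAs against 2D-iHEs all 4 were called higher, where 36.0% were. *Kcnq1* had a log2 fold change of 4.08 (SE 0.10) in iHLOs against 2D-iHs and 3.17 (SE 0.091) in iHEAs against 2D-iHEs. *Atp1b1* had values of 2.48 (SE 0.062) and 2.33 (SE 0.062), and *Atp4a* had 3.58 (SE 0.42) and 3.57 (SE 0.47). *Car2* had values of 1.95 (SE 0.077) and 2.12 (SE 0.079). *Kcnq1* was the gene of the 4 with the most different values in the 2 comparisons, and that difference is tested in the next paragraph. With the 3 low genes added, each was called higher in both comparisons. The *Kcnj11* call (adjusted p = 0.0398 and 0.0118 by edgeR) was lost in iHLOs against 2D-iHs without either 2D-iH library or the second iHLO library (adjusted p = 0.124, 0.106 and 0.183), and in iHEAs against 2D-iHEs without the first 2D-iHE library (adjusted p = 0.0717). The *Aqp3* call (adjusted p = 0.0179 and 0.00945) was lost in iHLOs against 2D-iHs without the first 2D-iH library or the first iHLO library (adjusted p = 0.117 and 0.105), and in iHEAs against 2D-iHEs without the first iHEA library (adjusted p = 0.0603). *Slc9a3* had an adjusted p of 0.00393 and 0.000495.

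In 2D culture the *Kcnq1* level was higher with iECs than without them. *Kcnq1* rose 2.17-fold in 2D-iHEs against 2D-iHs, from 77 and 60 counts to 178 and 95 counts (log2 fold change 1.11, SE 0.14, 95% interval 0.82 to 1.41, adjusted p = 0.000419 by edgeR). It was the only 1 of the 4 tested genes to be called, where 8.17% of genes were called in either direction. In iHEAs against iHLOs 0 of the 4 were called by edgeR or by DESeq2, where 2.26% of genes were called by edgeR, and only *Kcnq1* had an unadjusted p under 0.05 by edgeR. *Kcnq1* had a log2 fold change of 0.20 in that comparison (95% interval 0.051 to 0.36, adjusted p = 0.199 by edgeR), although both iHEA libraries were above both iHLO libraries. The difference between the co-culture effects, 3D minus 2D, was -0.91 on the log2 scale (SE 0.15, 95% interval -1.25 to -0.58, adjusted p = 0.0071 by edgeR), where 3.14% of genes were called in either direction. The call was lost without the second 2D-iH library (-0.82, adjusted p = 0.0588) and without the first 2D-iHE library (-0.80, adjusted p = 0.0913), while the difference kept its direction. The other 3 tested genes had differences of -0.16 for *Atp1b1*, -0.0013 for *Atp4a* and 0.17 for *Car2*, none of which was called. The *Atp1b1* difference was called without the unnumbered iHEA library (-0.25, adjusted p = 0.0223). For *Atp1b1* and *Car2* the intervals of iHEAs against iHLOs were narrow, from -0.16 to 0.092 and from -0.15 to 0.15. For *Atp4a* the interval ran from -1.24 to 0.14, so neither a fall by 1 on the log2 scale nor no change lay outside it, and without the filter on low counts *Atp4a* was called lower in iHEAs (-0.57, adjusted p = 0.00431 by edgeR). The iECs are human and enter the table only through reads that match mouse genes, and their part in the rise of *Kcnq1* in 2D-iHEs was not tested.

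**Figure D2:**
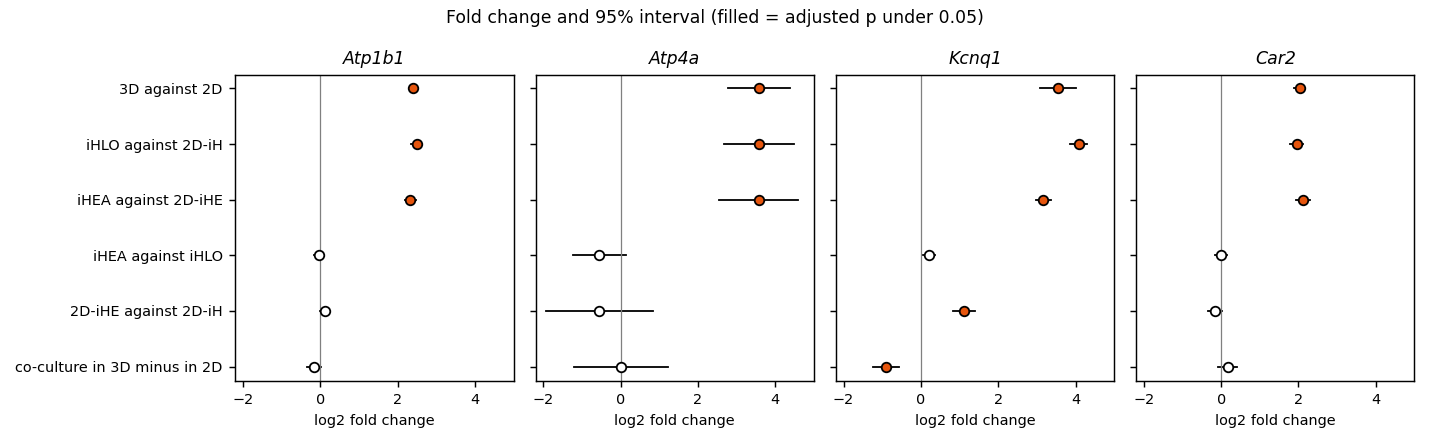
Log2 fold change of the 4 tested genes (dot) with its 95% interval (line) in 6 comparisons of the cultures, filled where the adjusted p was under 0.05. All 4 genes lie to the right of 0 in the 3 comparisons of 3D with 2D cultures. In the lower 3 comparisons only *Kcnq1* has filled dots, in 2D-iHEs against 2D-iHs and in co-culture in 3D minus in 2D, and no gene is filled in iHEAs against iHLOs.

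Pumps and channels of this kind work with partner subunits, which were examined next. *Atp1b3*, which encodes another beta subunit of the Na,K-ATPase, had a log2 fold change of 0.21 (SE 0.044, adjusted p = 0.00113 by edgeR), with 2615 to 4433 counts per 2D library and 3455 to 4264 per 3D library, which overlap. Per kilobase of exon, *Atp1b1* had 0.92 to 1.10 times the level of *Atp1b3* in the 2D libraries and 4.34 to 5.08 times its level in the 3D libraries. *Fxyd3*, a small membrane protein gene whose product modulates the pump, rose from 23 to 56 counts per 2D library to 1388 to 1652 per 3D library, with a log2 fold change of 5.45 (SE 0.18, adjusted p = 2.82e-10). *Atp1b2* was called higher as well, at a log2 fold change of 1.96 and at most 38 counts in the cultures. It reached the limit for testing through the 3D libraries alone, so a higher level in 3D was built into its selection. *Fxyd5*, which encodes another FXYD protein, was called lower at -0.89.

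The KCNE partner of epithelial KCNQ1 also rose. *Kcne3*, whose product keeps KCNQ1 open in intestinal and airway epithelia, rose from 79 to 144 counts per 2D library to 1329 to 1600 per 3D library (log2 fold change 3.96, SE 0.12, adjusted p = 1.32e-10 by edgeR). Its level per kilobase was 1.86 to 3.603 times that of *Kcnq1* in 2D and 2.66 to 3.35 times in 3D. *Kcne1*, the partner in heart and inner ear, had at most 1 count in any culture library, and *Kcne2*, the partner in gastric parietal cells, had 2 to 8. *Kcnq5*, another channel gene of the family, fell by 2.95 on the log2 scale.

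The partners of *Atp4a* and *Kcnj11* had another pattern. *Atp4b*, which encodes the beta subunit that the gastric pump needs, had at most 2 counts in every culture library except the first iHEA library, which had 8. *Atp12a*, the other catalytic H,K-ATPase gene in the list, was at or near 0 in the cultures, with a mean of at most 0.0076 CPM per kilobase. *Abcc8*, which encodes the sulfonylurea receptor SUR1 that pairs with Kir6.2, was at least 17.6-fold higher in 3D, with 1 to 3 counts per 2D library and 33 to 70 per 3D library. It reached the limit for testing through the 3D libraries alone, so its test is not given. *Abcc9*, which encodes the receptor SUR2, had at most 1 count in any culture library and 547 to 1166 counts in the liver libraries. *Kcnj2*, an inward rectifier gene, was called higher in 3D at a log2 fold change of 1.57.

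**Figure D3:**
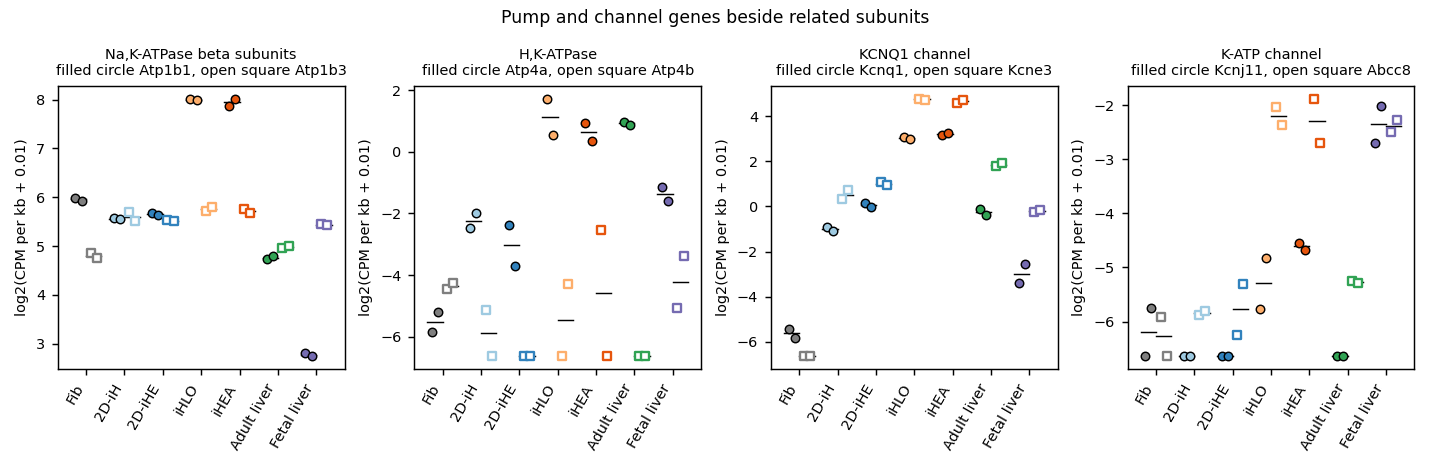
Level per kilobase of exon, as log2(CPM per kb + 0.01), of 4 of the genes (filled circles) beside a partner or, for *Atp1b1*, the other beta subunit gene *Atp1b3* (open squares), with 1 symbol per library. *Atp1b1* lies beside *Atp1b3* in 2D and above it in 3D, *Kcne3* follows *Kcnq1* from 2D to 3D, *Atp4b* stays near the lower limit while *Atp4a* is higher in 3D, and *Abcc8* is above *Kcnj11* in the 3D libraries.

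The wider families were followed in lists of 117 symbols, of which 110 were not among the 7 genes. Of these, 52 were tested in 3D against 2D by edgeR. Among them 31 (59.6%) were called higher and 13 (25.0%) lower, beside 38.7% and 37.2% of all tested genes. Their median log2 fold change was 0.62. Of the 56 tested genes including the members, 5 reached the limit for testing through the 3D libraries alone, among them *Atp1b2*, *Abcc8*, *Slc26a9* and *Sctr*, so a higher level in 3D was built into their selection, and 2 (*Car14* and *Slc9b1*) reached it through the 2D libraries alone.

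Of 9 tested carbonic anhydrases other than *Car2*, 4 were called higher and 3 lower, shares not far from the 38.7% and 37.2% of all tested genes. *Car8*, whose product resembles the carbonic anhydrases but lacks their activity, rose from 14 to 38 counts to 710 to 1048 (log2 fold change 5.09, SE 0.19, adjusted p = 6.44e-10 by edgeR), and *Car11*, also encoding an inactive relative, had a value of 1.98. *Car12*, *Car9* and *Car6*, which encode membrane-bound and secreted enzymes, were called lower at -1.50, -0.67 and -0.46. Per kilobase of exon, the mean level of *Car2* was 41.7 and 41.1 CPM in iHLOs and iHEAs, above 30.1 and 24.3 CPM for *Car9*. In 2D-iHs and 2D-iHEs the order was the other way, with 11.1 and 9.69 CPM for *Car2* and 37.1 and 52.0 CPM for *Car9*.

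All 4 tested aquaporins other than *Aqp3* were called higher in 3D, where 38.7% of all tested genes were. *Aqp1*, the water channel of bile duct and endothelial cells, rose from 29 to 56 counts to 1087 to 1267 (log2 fold change 4.92, SE 0.14, adjusted p = 8.51e-11 by edgeR). *Aqp8* had a log2 fold change of 3.24 (SE 0.47), *Aqp5* of 1.92 (SE 0.27) and *Aqp11* of 1.76 (SE 0.14).

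Of 7 tested Na/H exchangers 4 were called higher and 2 lower, and of 4 tested scaffolds and regulators of these exchangers 2 were called higher and 1 lower, beside 38.7% and 37.2% of all tested genes. *Slc9a2*, which encodes NHE2, rose from 47 to 104 counts to 481 to 507 (log2 fold change 2.74, SE 0.16, adjusted p = 2.35e-08 by edgeR), so that it had more counts than *Slc9a3* in every 3D library. *Slc9a9* and *Slc9a5* fell by 2.94 and 2.61 on the log2 scale. *Slc9a4*, which is known from gastric parietal cells and was named after its values were seen, had 0 counts in all 2D libraries and 22 to 39 per 3D library. Of the scaffolds that anchor NHE3, *Slc9a3r1* was called higher at a log2 fold change of 0.38 (SE 0.075), and *Pdzk1* had 1 to 4 counts in the cultures and a mean of 74.1 CPM in adult liver.

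Of 15 tested bicarbonate and chloride transporters and regulators, 8 were called higher and 4 lower, beside 38.7% and 37.2% of all tested genes. *Slc26a9*, a chloride channel gene of stomach and airway, was at least 17.7-fold higher in 3D, with at most 1 count per 2D library and 35 to 71 per 3D library. *Sctr*, the secretin receptor, was at least 21-fold higher, with at most 3 counts in 2D and 45 to 80 in 3D. *Slc4a2*, the bicarbonate exchanger AE2 that secretes bicarbonate into bile, rose by a log2 fold change of 1.18 (SE 0.053, adjusted p = 3.16e-09 by edgeR). *Slc4a4*, the sodium bicarbonate cotransporter, fell by 2.11 on the log2 scale. *Cftr*, the chloride channel that acts with AE2 in bile ducts, had 7 to 18 counts in the 3D libraries, and its log2 fold change of 0.38 was not called (adjusted p = 0.278). *Scnn1a*, the alpha subunit gene of the epithelial sodium channel, rose by a log2 fold change of 4.21 (SE 0.17, adjusted p = 1.41e-09), and *Scnn1b* and *Scnn1g* had at most 2 counts in the cultures.

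**Figure D4:**
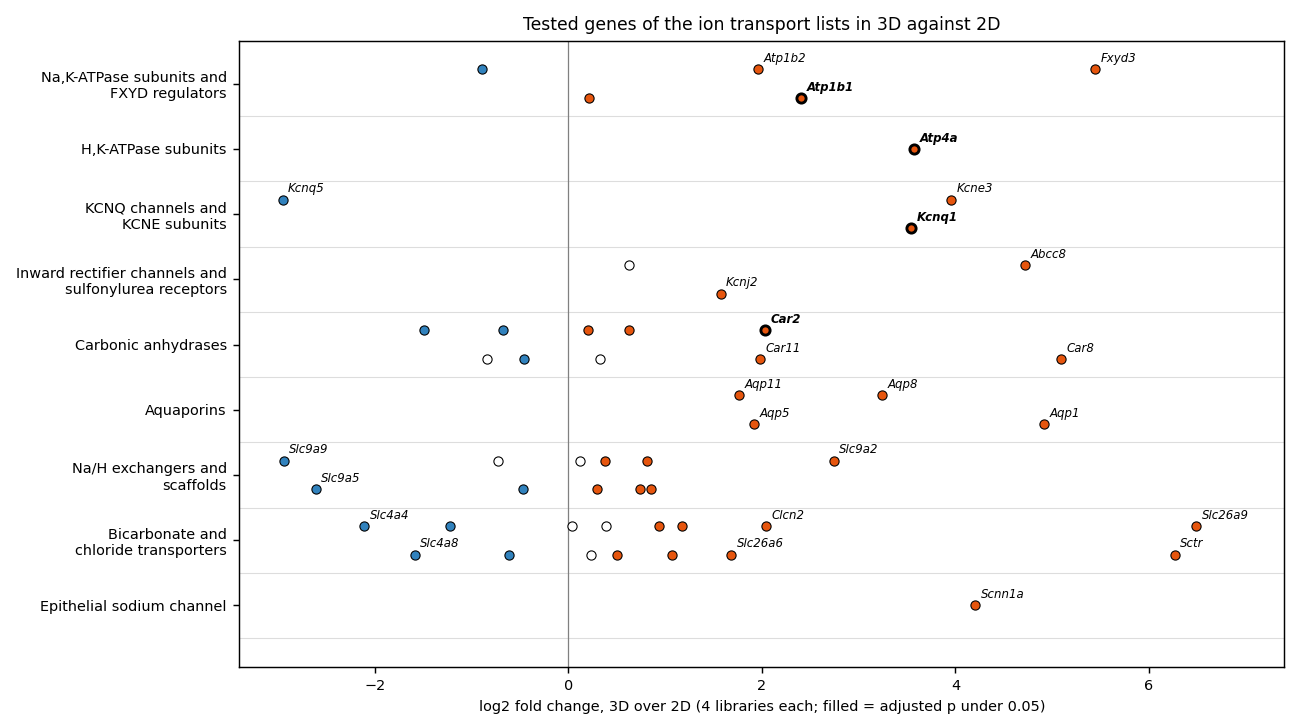
Log2 fold change in 3D over 2D (4 libraries each) of tested genes of the 9 ion transport lists, 1 dot per gene except for 3 genes not reported here, filled where the adjusted p was under 0.05, in orange for higher and blue for lower, with bold names for *Atp1b1*, *Atp4a*, *Kcnq1* and *Car2*. All 4 aquaporins lie to the right of 0, and the carbonic anhydrases, Na/H exchangers with their scaffolds and bicarbonate and chloride transporters lie on both sides.

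Markers of some other cell types also differed between 2D and 3D. The summed level of 9 gastric markers was 379 to 623 CPM in the 3D libraries and 3.61 to 8.36 CPM in the 2D libraries, led by *Gkn2*, *Gkn1* and *Pgc*. *Cblif*, which encodes gastric intrinsic factor, had 253 counts in the second iHLO library and 0 in the other 3D libraries. The summed level of 7 intestinal markers was 2078 to 2190 CPM in 3D and 474 to 832 CPM in 2D, and *Lgals4* alone made up 1898 to 1997 CPM of it in 3D and 435 to 774 CPM in 2D. In that list *Vil1* had a log2 fold change of 3.03 and *Cdx2* of 0.41, both called higher, while *Muc2* was not called and *Cdx1* had 0 counts in 3D. The summed level of 6 endothelial markers was 795 to 1250 CPM in 3D and 409 to 484 CPM in 2D. *Vwf* had a log2 fold change of 4.82 and was highest in iHLOs, to which no iECs were added, while *Cdh5* was not called and *Kdr* had at most 4 counts in 3D. The summed level of 6 cholangiocyte markers overlapped between the cultures, at 1235 to 1531 CPM in 3D and 1093 to 1372 CPM in 2D, with *Epcam* and *Krt7* called higher and *Sox9* and *Krt19* called lower. The summed level of 8 hepatocyte markers was 1042 to 1093 CPM in 3D and 642 to 702 CPM in 2D. *Apob* alone made up 681 to 783 CPM of it in 3D and 349 to 399 CPM in 2D. *Ttr* and *Apob* were called higher in 3D at log2 fold changes of 5.37 and 0.99, and *Tat* had at most 11 counts in 2D, 538 in the first iHEA library and 43 to 71 in the other 3D libraries. Of the other hepatocyte markers, *Apoa1* had 5697 to 10188 counts per 3D library. Its log2 fold change of -0.17 was not called (adjusted p = 0.174 by edgeR). *Alb* had at most 20 counts, *Cps1* at most 4 and *Serpina1a* and *Cyp3a11* at most 1 in any 3D library. In 2D *Alb* had 210 counts in the first 2D-iH library and at most 9 in the others, and its difference was not called either. The part of these cell types in the higher ion transport genes was not tested.

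Compared with the fibroblasts, 2D-iHs had higher *Car2*, *Kcnq1* and *Atp4a* and lower *Atp1b1*. All 4 tested genes were called in this comparison, where 83.9% of genes were called by edgeR. *Car2* had 10 and 10 counts in Fib and 966 and 853 in 2D-iHs (log2 fold change 6.43, SE 0.20, adjusted p = 8.93e-14). *Kcnq1* had 2 and 1 counts in Fib and was at least 22.9-fold higher in 2D-iHs (adjusted p = 5.24e-09), and *Atp4a* had 1 and 2 counts in Fib and was at least 8.8-fold higher (adjusted p = 0.00199). *Atp1b1* fell by 0.47 on the log2 scale (SE 0.060, adjusted p = 2.48e-06), from 194.8 and 187.9 CPM to 146.5 and 144.1 CPM. The fibroblasts had more *Atp1b1* than the 2D cultures, and per kilobase they had 2.19 to 2.27 times as much *Atp1b1* as *Atp1b3*. *Kcnj11*, *Aqp3* and *Slc9a3* had at most 1 count in either Fib library.

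The 2 liver stages differed in all 4 tested genes, where 83.7% of genes were called. *Car2* had 60297 and 45545 counts in the fetal liver libraries and 332 and 368 in the adult liver libraries, a log2 fold change in adult against fetal liver of -6.14 (SE 0.11, adjusted p = 9.65e-17 by edgeR). *Aqp3* followed the same direction, with 686 and 641 counts in fetal liver and 0 and 4 in adult liver (adjusted p = 2.51e-10 when added to the tested genes). *Kcnj11* had 18 and 27 counts in fetal liver and 0 in adult liver, so that it was at least 3.63-fold higher in fetal liver (adjusted p = 2e-04 when added). *Kcnq1*, *Atp4a* and *Atp1b1* were higher in adult liver, at log2 fold changes of 2.81 (SE 0.25), 2.33 (SE 0.39) and 2.02 (SE 0.070). *Kcnq1* had 57 and 49 counts in adult liver and 12 and 20 in fetal liver, and *Atp4a* had 113 and 108 in adult liver and 57 and 37 in fetal liver. *Slc9a3* had 0 counts in adult liver and 4 and 1 in fetal liver. Scaling by total counts in place of TMM shifted the median of all genes by -1.42 on the log2 scale in this comparison. With that scaling the log2 fold changes were 1.39 for *Kcnq1*, 0.91 for *Atp4a* and 0.60 for *Atp1b1*, and they were still called.

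Red blood cell markers were highest in fetal liver, as were *Car2*, *Aqp3* and *Kcnj11*. The summed level of 9 erythroid markers was 34710 to 36480 CPM in fetal liver, 593 to 634 CPM in adult liver and at most 0.808 CPM in the cultures, and all 9 exceeded 3 counts in both fetal liver libraries. *Hbb-bs* had 454653 and 370893 counts there, and *Slc4a1*, the bicarbonate exchanger of red cells, had 129084 and 90166. In adult liver *Car2* was at 21.7 and 23.3 CPM, and *Kcnj11* had 0 counts. The part of red blood cells in the fetal level of the 3 genes was not tested. In every culture library *Hba-a2* and *Hbb-bt* had 0 counts and *Hbb-bs* had at most 1, while *Car2* was at 92.3 to 109.8 CPM in 3D.

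**Figure D5:**
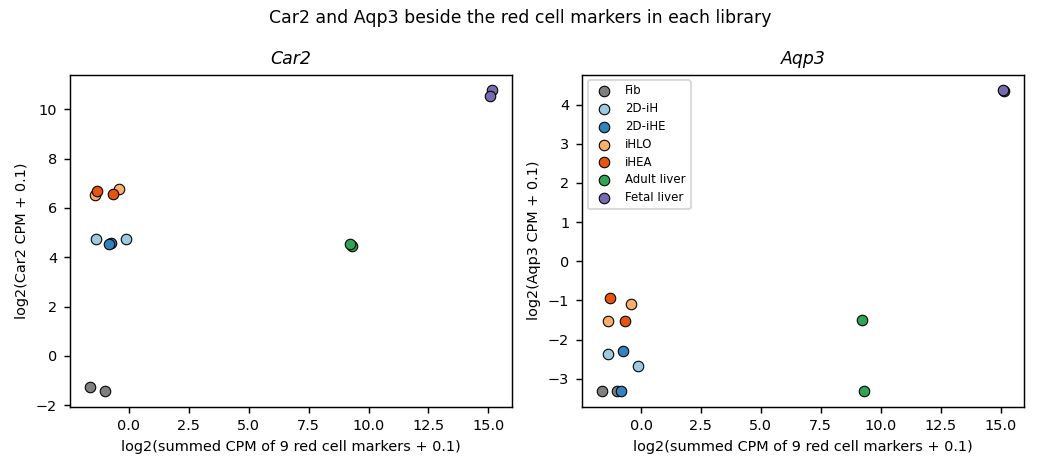
Level of *Car2* (left) and *Aqp3* (right) as log2(CPM + 0.1) against the summed level of 9 red cell markers as log2(CPM + 0.1), with 1 dot per library coloured by condition. Fetal liver is highest on both axes, and the 3D cultures lie above the 2D cultures for both genes at the same low marker level.

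iHLOs were also compared with adult liver. *Kcnq1*, *Atp1b1* and *Car2* were called higher in iHLOs, 3 of the 4 tested genes, where 84.9% of genes were called in either direction. Their log2 fold changes were 3.15 (SE 0.14, adjusted p = 4.16e-12), 3.11 (SE 0.065, adjusted p = 4.63e-16) and 2.03 (SE 0.10, adjusted p = 2.75e-11) by edgeR. *Atp4a* had 7.39 and 6.84 CPM in adult liver, between the iHLO libraries at 12.5 and 5.42 CPM, and was not called (log2 fold change 0.20, 95% interval -0.49 to 0.89, adjusted p = 0.575). With scaling by total counts, which moved the median of all genes by 1.43, *Atp4a* was called higher in iHLOs at 1.63 (adjusted p = 0.000195), and without the second iHLO library it was called at 0.67 (adjusted p = 0.0317). *Slc9a3* had 0 counts in adult liver and 14 and 18 in iHLOs, at least 2.56-fold higher in iHLOs (adjusted p = 0.00295 when added). Adult liver had its own abundant members of these families, among them *Car3* with 46559 and 46062 counts, which had 0 counts in the 3D libraries.

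Across the 7 conditions the order of levels differed between the genes. *Atp1b1* ran from 789.8 ± 7.2 CPM in iHLOs (mean ± SD, n = 2) and 761.6 ± 56.1 in iHEAs through Fib at 191.4 ± 4.9, 2D-iHEs at 155.4 ± 3.2, 2D-iHs at 145.3 ± 1.7 and adult liver at 83.6 ± 2.2 to fetal liver at 21.0 ± 0.71, with overlap between iHLOs and iHEAs only. *Kcnq1* ran from 37.9 ± 0.94 CPM in iHEAs and 33.3 ± 1.8 in iHLOs through 2D-iHEs at 4.26 ± 0.45, adult liver at 3.42 ± 0.44, 2D-iHs at 2.02 ± 0.18 and fetal liver at 0.50 ± 0.21 to Fib at 0.043 ± 0.015. No neighbours in this order overlapped, although with total counts adult liver fell below 2D-iHs. *Atp4a* ran from 8.95 ± 4.99 CPM in iHLOs through adult liver at 7.12 ± 0.39, iHEAs at 6.01 ± 1.69, fetal liver at 1.44 ± 0.34, 2D-iHs at 0.78 ± 0.19 and 2D-iHEs at 0.47 ± 0.32 to Fib at 0.045 ± 0.026. Its upper 3 conditions overlapped their neighbours, as did the 2D cultures, although with total counts adult liver, at 3.08 to 3.29 CPM, was below both iHLOs and iHEAs without overlap. *Car2* had 1625 ± 212 CPM in fetal liver, 101.1 ± 12.4 in iHLOs, 99.6 ± 5.9 in iHEAs, 26.9 ± 0.078 in 2D-iHs, 23.5 ± 0.21 in 2D-iHEs, 22.5 ± 1.1 in adult liver and 0.29 ± 0.036 in Fib, and only iHLOs and iHEAs overlapped. *Aqp3* had 20.5 ± 0.40 CPM in fetal liver and a mean of at most 0.336 in every other condition, and *Kcnj11* had 0.70 ± 0.24 in fetal liver and a mean of at most 0.114 elsewhere. *Slc9a3* was the only low gene of the 3 with its highest means in iHEAs (0.51 ± 0.43 CPM) and iHLOs (0.49 ± 0.094), which overlapped, and fetal liver followed at 0.075 ± 0.060.

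Genes of similar pattern were sought by the Pearson correlation of log2 CPM over the 14 libraries, which share 7 conditions and are not independent points. The most similar genes were *Uggt1*, *Frk* and *Crebrf* for *Atp1b1* (r = 0.991 to 0.995), *Slc35c1*, *AU021092* and *Arhgef3* for *Kcnq1* (r = 0.989 to 0.991), *Vrk3*, *Tmem125* and *Ddx41* for *Atp4a* (r = 0.973 to 0.976) and *Nsmce4a*, *Zfpm1* and *Dnajb13* for *Car2* (r = 0.984 to 0.990). For the low genes they were *Bex2*, *Alg8* and *Adgrg1* for *Kcnj11*, *Dhrs11*, *Alg8* and *Tmem120b* for *Aqp3*, and *Ccdc174*, *Pgc* and *Muc5ac* for *Slc9a3*, with r between 0.931 and 0.981. Among the 7 genes themselves, *Kcnj11* and *Aqp3* were the most alike (r = 0.929), followed by *Car2* and *Aqp3* (r = 0.822) and *Kcnq1* and *Atp4a* (r = 0.788), whereas *Atp1b1* and *Aqp3* had r = -0.507. Outside fetal liver *Kcnj11* had at most 4 counts and *Aqp3* at most 14, so the r of this pair rests largely on the fetal liver libraries. *Car2* was highest there as well.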

How the data were processed

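The authors trimmed reads with Trimmomatic 0.36 (per the submitters' processing notes), mapped them to GRCm38 by HISAT2, took gene models from Cufflinks and obtained counts from HTSeq. The other versions, the strand setting and the handling of multiply matching reads are not given in the sources used here. The deposited values are whole-number counts per gene, with 20851489 to 35143325 counts per library, and were used as raw counts.

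Genes whose log2(count + 1) averaged 3 or more in a fit's libraries entered, after TMM scaling, the quasi-likelihood F test of edgeR 4.0.16 (R 4.3.3), with Benjamini-Hochberg adjustment over all tested genes. 3D was compared with 2D in 4 against 4 libraries (13409 genes), the cultures in a fit of 4 conditions, and Fib and livers in a fit of all 14 libraries (14121 genes). SEs were derived from the F statistics, and the tests were checked on simulated counts. The libraries of a condition differed by more than sampling noise (chi-square of 3.047 to 13.42 per gene), so each was kept.

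The 7 genes and all lists were chosen with earlier results of these data known. Named were the 7 genes, fixed partners, up to 3 called genes per list with the largest fold change and no overlap, and the 3 genes most correlated with each of the 7. Other called genes of a list and leading markers were named after their values were seen. Some genes the rule names are not reported here. Coordinates are from GENCODE. Alternatives were other scaling, other filters, DESeq2 1.42.0, a block for the number of the library, other sets of libraries and each library left out.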

Additional observations from a re-analysis of the deposited data

Results flagged for a closer look

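The effect of iEC co-culture on *Kcnq1* was called different between 2D and 3D culture by a test of the difference itself, a call that did not hold without every library. The log2 difference, 3D minus 2D, was -0.91 (SE 0.15, adjusted p = 0.0071 by edgeR's quasi-likelihood test, 2 libraries per condition). It was -0.82 (adjusted p = 0.0588) without the second 2D-iH library and -0.80 (adjusted p = 0.0913) without the first 2D-iHE library. Both 2D-iHE libraries were above both 2D-iH libraries, at 4.58 and 3.94 against 2.15 and 1.89 CPM, and both iHEA libraries were above both iHLO libraries, at 37.3 and 38.6 against 34.6 and 32.0 CPM. By Dixon's criterion at the 95% level no library of the 7 genes lay apart from the other 3 of its culture shape, with a highest ratio of gap to range of 0.791 (*Atp1b1* in 3D), and 4 values give this criterion little power. *Kcnj11* in 2D, at 0 counts throughout, gave no ratio.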

How the results depend on the processing

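Of 1123 recomputed values, 1054 stayed on their side of the threshold or within 1.5 times the reported count, 37 counts moved further, 15 single genes became called and 17 lost the call. None of 528 values for a called gene changed sign, and 28 of 337 values for a gene that was not called did, among them *Car2*, *Atp1b1* and *Atp4a* in iHEAs against iHLOs and *Atp4a* in iHLOs against adult liver (0.20, and -0.52 without the first iHLO library). In 3D against 2D, *Atp1b1*, *Atp4a*, *Kcnq1* and *Car2* were called under each of the 17 alternatives run, with log2 fold changes of 2.37 to 2.44, 3.22 to 3.77, 3.36 to 3.83 and 1.99 to 2.07. The number of the 7 genes called was 7 in 3D against 2D without a filter on low counts or with the 7 genes added to those tested, and 7 with them added in iHLOs against 2D-iHs and in iHEAs against 2D-iHEs. *Kcnj11* and *Aqp3* also lost their call in the last 2 comparisons by DESeq2, with adjusted p of 0.22 and 0.103 and of 0.13 and 0.0568. *Kcnj11* lost it as well without a filter (adjusted p = 0.16 and 0.0597), and in iHLOs against 2D-iHs with a filter of at least 5 (0.0573) or all 14 libraries in the fit (0.0535), so that 7 of 14 alternatives lost that call.

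Counts of called genes in the co-culture comparisons depended strongly on the settings. In iHEAs against iHLOs, 303 genes were called, against 881 without a filter, 90 in only the 4 libraries compared and 90 to 739 with 1 of these 4 left out of the fit. In 2D-iHEs against 2D-iHs, 1096 genes were called, against 2046 in only the 4 libraries compared and 257 to 429 with 1 of these 4 left out of the fit. Without the unnumbered iHEA library, which lies outside this comparison, 2003 genes were called. The difference between the co-culture effects was called for 421 genes, against 901 without a filter and 129 to 963 with 1 library left out, and for 0 to 2 of the 7 genes with 1 library left out. Without a filter, 1 of the 7 genes was called in iHEAs against iHLOs, *Atp4a* at -0.57 (adjusted p = 0.00431 by edgeR). The cause of these changes was not tested.

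The numbers of the libraries were not shown to pair them. Over 15 pairs of conditions the deviations of same-numbered libraries correlated at -0.07 to 0.048, with 0 of 15 over 0.1. A fit with the number as a replicate block left out the unnumbered iHEA library. With the block, 624, 1953 and 786 genes were called in the 3 co-culture comparisons in the same order, and without the block in the same libraries, an alternative chosen after seeing the data, 647, 2003 and 801. With the block 1 of the 7 genes was called in iHEAs against iHLOs (*Atp4a*, -0.70, adjusted p = 0.00678), a call not made without the block in the same libraries, and 2 had a called difference of co-culture effects with the block or without it in the same libraries (*Kcnq1* and *Atp1b1*). The few counts of *Kcnj11*, *Aqp3* and *Slc9a3*, at most 27 in any culture library, limit what can be said of them.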
